A study of Mus musculus with 16 samples.

Results

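The effect of IRF8 by itself was measured in 32Dcl.3 cells, a mouse myeloid progenitor line that depends on interleukin-3, by comparing 2 arrays of cells carrying IRF8 with 2 arrays of cells carrying empty vectors. These 4 arrays are all the members of the comparison, out of 16 single-colour arrays in 8 groups of 2 in the series. IRF8 cells had received the retrovirus MSCV-IRF8-IRES-hCD8t together with an empty MSCV-IRES-puro vector, and control cells the empty forms of both vectors, MSCV-IRES-hCD8t and MSCV-IRES-puro. Both groups were kept in medium conditioned by WEHI3B cells, were infected by spinoculation, and were collected on day 3; neither received C/EBPalpha. Other 32Dcl.3 cells received C/EBPalpha without or with IRF8, and the remaining arrays hold sorted bone marrow progenitors of wild-type and Irf8-deficient mice. The 2 arrays of each group come from 2 experiments described as independent, and p-values measure the spread between these arrays. The sources used here do not say whether transduced cells were enriched before RNA was extracted, and in a culture read as a whole, more RNA per cell and a larger share of expressing cells cannot be told apart.

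IRF8 is a transcription factor of the interferon regulatory factor family that is needed in mice for the formation of monocytes and several kinds of dendritic cell and that restrains the production of neutrophils. It binds DNA poorly by itself. With PU.1, the product of Spi1, it binds ETS-IRF composite elements, and with IRF1 or IRF2 it binds interferon-stimulated response elements. Genes of antigen presentation, lysosomal proteases and guanylate-binding proteins are among its known targets in macrophages.

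Levels are given as log2 of the background-subtracted signal relative to the 75th percentile of the same array, so that a level of 0 is that percentile, and levels of different genes are not comparable because each probe binds its target with its own strength. A change is the mean level of the IRF8 arrays minus that of the empty-vector arrays, with its standard error from the fit. A gene is said to rise or fall when its p-value from limma, with Benjamini-Hochberg adjustment over all genes tested, is under 0.05. The 75th percentile was 460.1 and 445.2 on the empty-vector arrays and 367.0 and 368.6 on the IRF8 arrays, and 53.5% to 56.2% of probes were well above background. The line's granule genes Mpo, Elane, Prtn3 and Ctsg and its cytokine receptor genes Il3ra and Csf2rb were detected on all 4 arrays, whereas the probe for Kit was not well above background on any of them. The probe for Irf8 was not well above background either, at signals of 13.04 and 6.76 in empty-vector cells and 13.02 and 11.4 in IRF8 cells, so the array does not show the introduced transcript and gives no check of the labels. Where that probe lies in the transcript is not known here. All arrays of 32Dcl.3 cells were on 1 slide, with both IRF8 groups in a slide column of their own, so slide column and IRF8 cannot be told apart.

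IRF8 changed many genes, most of them by little, and its largest effects were rises. Of 13337 genes tested, 3023 rose (22.7%) and 3387 fell (25.4%), together 48.1%. Among genes that rose the median change was 0.36, and among genes that fell it was -0.25. At 2-fold or more, 476 genes rose (3.57%) and 204 fell (1.53%). At 8-fold or more, 87 rose and 11 fell. Over all genes tested the median change was -0.03. Centring each array on its median in place of the 75th percentile moved the split from 47.2% to 59.2% rising among the genes called, with 2954 rising and 2032 falling. The number falling 2-fold or more was 339 without the first empty-vector array. With the normexp background, which adds an offset of 50 to every signal, 259 rose and 74 fell at least 2-fold, since dim genes then change less.

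**Figure D1:**
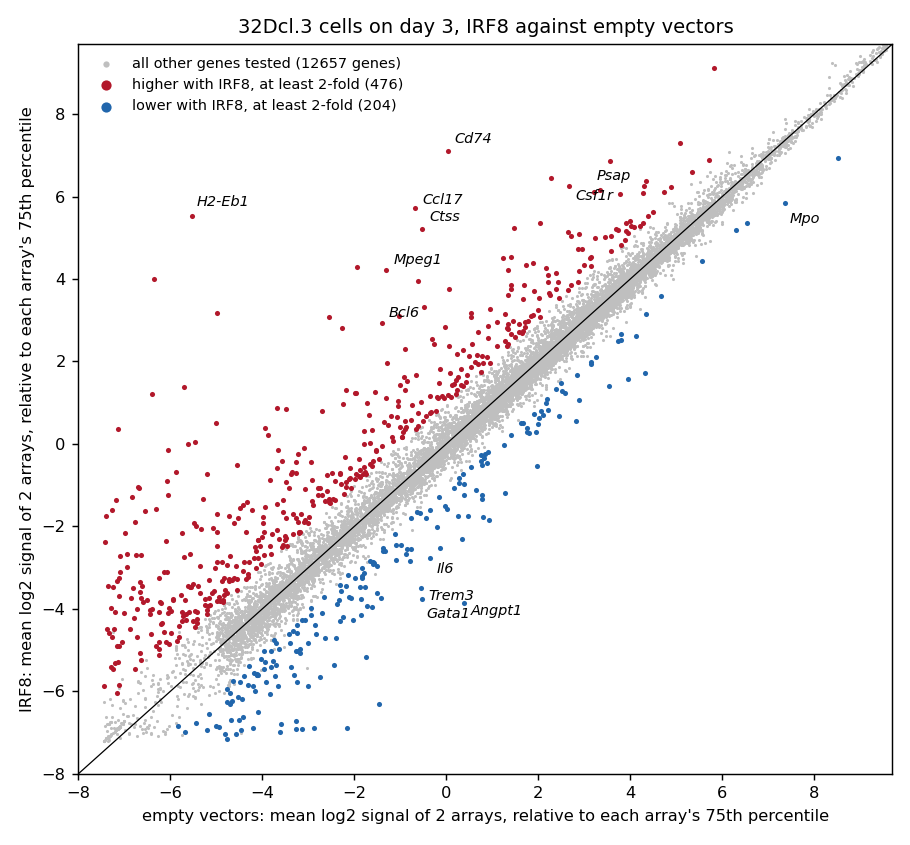
Mean log2 signal of the 2 IRF8 arrays (vertical) against that of the 2 empty-vector arrays (horizontal) for 13337 genes, both relative to each array's 75th percentile, with the line of equal level. Red points are the 476 genes that rose and blue points the 204 genes that fell by at least 2-fold; the red points reach farther from the line than the blue ones.

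The strongest response was in antigen presentation on MHC class II, the route by which professional presenting cells show peptides from engulfed material to CD4+ T cells. Of 14 tested genes of the pathway 12 rose, against 22.7% of all genes, 10 of them by at least 2-fold, and the median change was 2.48 against -0.03 over all genes. Ciita, which encodes the coactivator on which transcription of the class II genes depends, was at -3.70 and -3.28 in empty-vector cells and -0.90 and -0.94 in IRF8 cells, a rise of 2.57 ± 0.13 (adjusted p = 1.77e-08, limma). Its partners on DNA showed little or no change: Rfxank rose by 0.16 ± 0.05, while Rfx5 (-0.22 ± 0.20) and Rfxap (-0.08 ± 0.17) did not pass the test.

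The classical class II chains went from the edge of detection to a clear signal. H2-Eb1, the E beta chain, was at -4.71 and -6.36 in empty-vector cells, where 1 of 2 arrays was above background, and at 5.52 and 5.53 in IRF8 cells. Its fitted change of 11.07 ± 0.36 was 11.89 without the first and 10.24 without the second empty-vector array, and 7.98 with the normexp background. H2-Ab1, the A beta chain, was not well above background in empty-vector cells and stood at 3.98 and 4.02 with IRF8, at least 557-fold higher. Such a bound sets the IRF8 mean against the faintest detected signal of each empty-vector array, or the probe's own signal where that was higher. H2-Aa, the A alpha chain, was likewise undetected in empty-vector cells and reached 0.33 and 0.39, at least 44.7-fold higher. In all of these genes the IRF8 arrays lay far above the empty-vector arrays and close to each other. The class II chains are similar in sequence, and whether each probe reads its own gene alone was not tested.

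Cd74 encodes the invariant chain, which fills the class II groove until it is exchanged for peptide. It was at 0.02 and 0.03 in empty-vector cells and 7.09 and 7.12 in IRF8 cells, a 135-fold rise (7.08 ± 0.04, adjusted p = 2.13e-16, limma). H2-DMa, a chain of the DM molecule that catalyses this exchange, went from -2.59 and -2.53 to 3.07 and 3.07 (5.63 ± 0.09). Its partner chains rose less: H2-DMb1 by 1.58 ± 0.05, and H2-DMb2, undetected in empty-vector cells, by at least 5.31-fold. H2-Oa and H2-Ob, the chains of the DO molecule that inhibits DM, rose by 1.25 ± 0.05 and 2.38 ± 0.05. Ifi30, a lysosomal thiol reductase that unfolds antigens, rose by 0.17 ± 0.06, and H2-Eb2 was not detected in any 32Dcl.3 group.

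**Figure D2:**
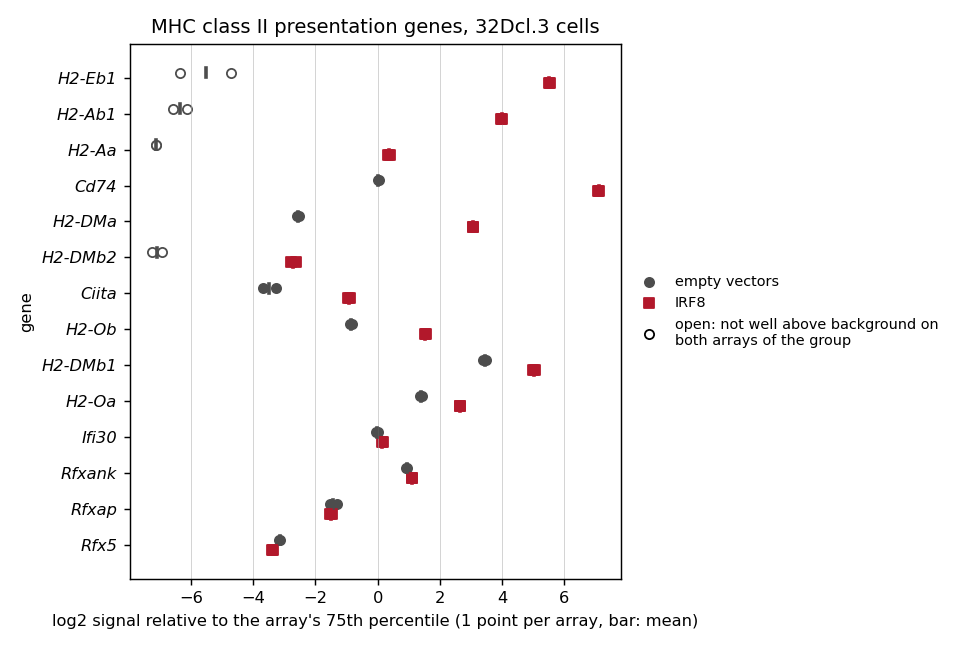
Log2 signal of each array (horizontal, relative to the array's 75th percentile) for the 14 tested class II genes, with circles for empty vectors, squares for IRF8, open symbols where a group was not above background on both arrays, and bars at the means. In the 10 upper genes the IRF8 squares lie at least 2-fold to the right of the circles, while in Rfxap the groups overlap.

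Class II promoters carry a Y box, a CCAAT-type element read together with the RFX and X2 sites by the assembly that recruits CIITA. The windows of H2-Eb1 and H2-Aa are shown because they are the class II chains that rose most among those with a match. They were taken from RefSeq promoter windows of build GRCm38.p6, from 250 bases before to 50 after each start, and the search covered CTGATTGG on both strands. Capitals mark the match, which begins 62 bases before the start in H2-Eb1 (chr17:34305785-34305832, plus strand) and 51 before it in H2-Aa (chr17:34287847-34287894, minus strand).
H2-Eb1: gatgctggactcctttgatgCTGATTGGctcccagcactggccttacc
H2-Aa: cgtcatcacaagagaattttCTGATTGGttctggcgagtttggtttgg
The same letters occurred in 4.1% of all 32851 windows. Of the tested genes with a window, 6.3% had them in any of their windows, a share of genes and not of windows. A match thus describes the sequence and names no bound site.

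Outside this pathway, several of the largest rises were of genes known from macrophages and dendritic cells. Ccl17, a chemokine that draws T cells with the receptor CCR4, went from -0.67 and -0.68 to 5.72 and 5.72, an 84.3-fold rise (6.40 ± 0.04). Clec4n, which encodes the fungal pattern receptor dectin-2, went from -1.99 and -1.89 to 4.27 and 4.31 (6.23 ± 0.04). Mpeg1, a pore-forming protein of phagocytes, rose by 5.51 ± 0.04 and Trem2, a lipid receptor of macrophages, by 5.06 ± 0.06. In these genes the IRF8 arrays lay far above the empty-vector arrays, and the spread within each group was small beside that gap.

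Further large rises were of varied function. Il6ra, the ligand-binding chain of the interleukin-6 receptor, rose by 4.59 ± 0.05 and Lsp1, an actin-binding protein of leukocytes, by 4.17 ± 0.03. The kallikrein genes Klk1b24 and Klk1b22 rose by 4.57 ± 0.10 and 4.34 ± 0.08, but they are near-identical copies whose probes may read the same transcript. Plet1 (4.33 ± 0.10), the aldo-keto reductase gene Akr1c19 (4.13 ± 0.25) and the small GTPase gene Rab19 (4.10 ± 0.14) complete the 15 largest rises among genes detected on all 4 arrays. Among genes undetected in empty-vector cells, the adenosine receptor gene Adora3 was at least 90.9-fold higher, the UDP receptor gene P2ry6 at least 80.2-fold, the lectin gene Clec4b1 at least 34.7-fold and Scimp, an adaptor of antigen-presenting cells, at least 33.6-fold.

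**Figure D3:**
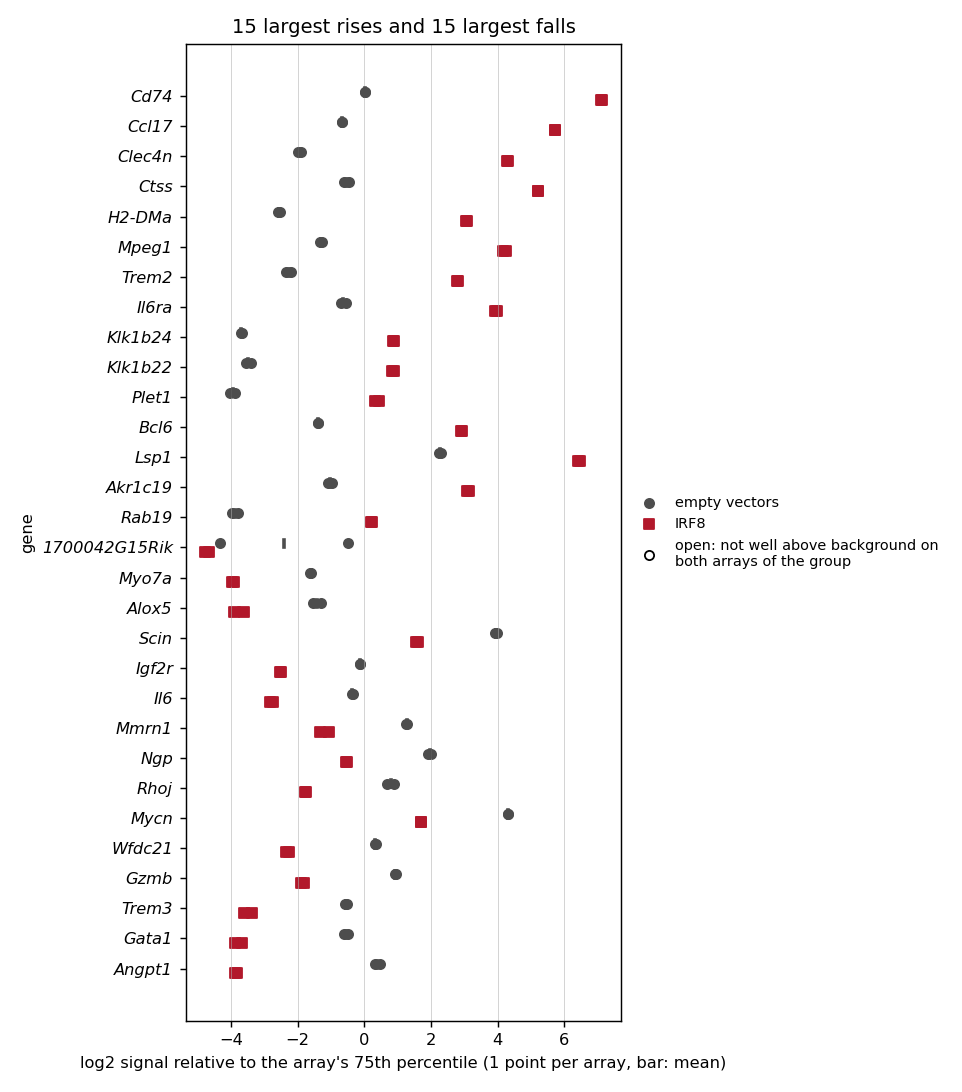
Log2 signal of each array (horizontal, relative to the array's 75th percentile) for the 15 genes with the largest rises and the 15 with the largest falls among genes above background on all 4 arrays. Circles are empty-vector and squares IRF8 arrays; groups stand apart in every gene but 1700042G15Rik, whose empty-vector arrays lie at -0.49 and -4.32.

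Monocyte and macrophage genes moved in part. Of 34 listed genes 22 were tested, of which 12 rose and 2 fell, against 22.7% and 25.4% of all genes. Their median change was 0.52. The other 12 listed genes, among them Cx3cr1, Mertk, Msr1, C1qa and F13a1, were not detected in any 32Dcl.3 group. Csf1r, the receptor through which M-CSF sustains monocytes and macrophages, went from 2.66 and 2.66 to 6.26 and 6.27 (3.61 ± 0.04, 12.2-fold), or by 3.00 on the mean of its probes. Aif1, an actin-bundling protein of macrophages, rose by 3.27 ± 0.04. The lysozyme genes Lyz2 and Lyz1 rose by 2.54 ± 0.03 and 2.49 ± 0.03 and may not be separated by their probes. Ly6c1 fell by 0.54 on its brightest probe, but the mean over its probes rose by 0.65, so its direction is not settled. The summed signal of the tested members was 121 and 123 times the 75th percentile in empty-vector cells and 317 and 322 times in IRF8 cells.

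Receptors with which phagocytes sense antibody, sugars and cell debris mostly rose. In the list of Fc receptors, lectins and ITAM adaptors 19 of 27 tested genes rose, 11 by at least 2-fold, and 3 fell (5 on the mean over a gene's probes). Over all genes 22.7% rose, 3.57% by at least 2-fold, and 25.4% fell. The median change of the list was 0.78. The low-affinity IgG receptor gene Fcgr3 went from 0.50 and 0.58 to 1.83 and 1.88 (1.32 ± 0.04), its inhibitory counterpart Fcgr2b rose by 0.88 ± 0.04, and the high-affinity receptor gene Fcgr1 rose by 0.41 ± 0.05. Tyrobp, the adaptor DAP12 that serves TREM2 and other receptors, rose by 0.83 ± 0.03, and the kinase gene Syk by 0.60 ± 0.03. The paired receptor genes Pira2 (2.33 ± 0.04) and Pirb (1.86 ± 0.03) rose too, with near-identical relatives that a probe may not distinguish. Against this, Trem3 fell by 2.94 (by 1.63 with the normexp background) and Pilrb1 by 1.68.

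Dendritic cell genes rose in few members. Of 13 tested genes 5 rose, against 22.7% of all genes, or 8 with the normexp background. Their median change was 0.33. Besides Ccl17, these included Itgax, the integrin CD11c, from -0.95 and -0.90 to 1.60 and 1.65 (2.55 ± 0.08), and the costimulatory ligand gene Cd80 (1.05 ± 0.04). The lineage factors Zbtb46 (0.51 ± 0.21) and Batf3 (-0.16 ± 0.41) and the growth factor receptor gene Flt3 (-0.54 ± 0.29) did not pass the test. Clec9a, Xcr1, Cd209a, Cd86 and Ccl22 were not detected in any 32Dcl.3 group.

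Lysosomal genes rose broadly and by small amounts. Of 42 tested hydrolases, membrane proteins and proton pump subunits 32 rose and 4 fell, against 22.7% and 25.4% of all genes. Their median change was 0.40. Psap, the precursor of the saposins that assist lipid breakdown, went from 3.80 and 3.75 to 6.05 and 6.07 (2.28 ± 0.03) and was the single member past 2-fold. Scarb2, the lysosomal receptor for glucocerebrosidase, rose by 0.99 ± 0.04. Mitf and Tfeb, transcription factors of lysosome formation, rose by 0.61 ± 0.06 and 0.86 ± 0.12.

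Proteases and their inhibitors moved in both directions. Ctss, the cathepsin that cleaves the invariant chain in presenting cells, went from -0.60 and -0.46 to 5.21 and 5.22, a 53.4-fold rise (5.74 ± 0.06, adjusted p = 9.15e-15, limma). Cst3, a secreted cystatin abundant in dendritic cells, went from 5.81 and 5.83 to 9.09 and 9.13 (3.29 ± 0.03). Ctsk, a collagen-degrading cathepsin, was at least 2.18-fold higher. Ctsg, the granule protease cathepsin G, went the other way, from 8.50 and 8.55 to 6.94 and 6.93, and the stefin genes Stfa1 and Stfa3 fell by 1.52 and 1.34; stefins are near-identical copies. Over 20 tested cathepsins and cystatins 9 rose and 4 fell, against 22.7% and 25.4% of all genes. Their median change was 0.08.

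Interferon-related genes split by group. Of 7 tested members of the IRF family 5 rose, against 22.7% of all genes. The largest rise was of Irf9, a subunit of the interferon-activated complex ISGF3 (0.83 and 0.94 against 2.07 and 2.14, a rise of 1.22 ± 0.05). Irf5 rose by 1.12 ± 0.04, Irf7 by 0.97 ± 0.14 and Irf1 by 0.17 ± 0.03. Stat2, another ISGF3 subunit, rose by 0.84 ± 0.04. Of 46 tested antiviral interferon-stimulated genes 28 rose and 7 fell, against 22.7% and 25.4% of all genes. Their median change was 0.34. Phf11d rose by 2.81 ± 0.07, and Oasl2 was undetected in empty-vector cells and at least 5.35-fold higher with IRF8; without the first or the second empty-vector array the fitted change of Oasl2, 4.05 ± 0.36, was 4.74 or 3.37. The RNA sensor gene Ddx58 fell from 2.12 and 2.10 to 0.68 and 0.71 (-1.41 ± 0.04), Samd9l fell by 1.16 and Oas2 by 1.13.

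Guanylate-binding proteins, GTPases that attack vacuoles of intracellular pathogens, rose in 8 of 15 tested members, with 2 falling and a median change of 0.26. Gbp3 went from -3.73 and -3.58 to -0.21 and -0.08 (3.51 ± 0.12, or 2.27 with the normexp background), Gbp5 rose by 2.24 ± 0.16, and Gbp2 was at least 5.2-fold higher than in empty-vector cells, where it was undetected. In MHC class I presentation, 16 of 23 tested genes rose and 2 fell, against the same shares of all genes. The median change was 0.52. Tapbp, the peptide-loading factor tapasin, rose by 1.16 ± 0.04 and Psmb9, an immunoproteasome subunit, by 1.08 ± 0.04. Nlrc5, the class I coactivator, rose by 1.09 ± 0.07 on its brightest probe, but its other detected probe changed by 0.02. The nonclassical gene H2-T24 fell by 1.39.

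The RefSeq windows of the same build were searched on both strands for the ETS-IRF composite element (GGAANNGAAA), for a core of the interferon-stimulated response element (GAAANNGAAA) and for an IRF-ETS sequence (GAAANNGGAA). Of 13337 tested genes 10690 had a window. Among genes with a window, the response-element core occurred in 9.5% of those that rose at least 2-fold (36 of 379). It occurred in 5.13% of those that fell at least 2-fold, and in 3.84% over all tested genes. For the composite element the shares were 2.11%, 0.641% and 2.86%, and for the IRF-ETS sequence 4.22%, 4.49% and 3.47%. These shares are descriptions without a test, and a gene with matches in any of its windows counts once.

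The matches in some of the genes that moved most are shown for comparison, on the strand of the gene, with the matched letters in capitals; TTTC forms are the element read on the other strand. Bcl6 (chr16:23981284-23981331, minus strand) holds the composite element 28 bases before its start. Ctss (chr3:95526745-95526785, plus strand), Gbp3 (chr3:142559979-142560034, plus strand), Rnase6 (chr14:51128997-51129046, plus strand) and Phf11a (chr14:59297523-59297571, minus strand) hold the response-element core 21, 45, 47 and 29 bases before it, in Gbp3 as overlapping copies. Oas1c (chr5:120812593-120812648, minus strand), which fell, also holds overlapping copies, the first 114 bases before its start.
Bcl6: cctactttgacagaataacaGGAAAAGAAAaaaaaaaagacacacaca
Ctss: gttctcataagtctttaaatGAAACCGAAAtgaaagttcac
Gbp3: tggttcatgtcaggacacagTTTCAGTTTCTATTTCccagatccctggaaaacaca
Rnase6: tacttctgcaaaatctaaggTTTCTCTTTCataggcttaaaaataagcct
Phf11a: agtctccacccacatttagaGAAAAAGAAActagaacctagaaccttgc
Oas1c: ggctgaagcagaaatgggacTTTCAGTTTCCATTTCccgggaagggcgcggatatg
The same element thus stood before genes that rose and before a gene that fell.

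Transcription factors of monocytes and dendritic cells rose in 11 of 22 tested members and fell in 1, against 22.7% and 25.4% of all genes. Their median change was 0.27. Bcl6, a repressor of germinal centre B cells and of inflammatory genes, went from -1.40 and -1.39 to 2.90 and 2.95, a rise of 4.32 ± 0.04. Id2, an inhibitor of E proteins needed for several dendritic cell types, went from 2.73 and 2.67 to 5.06 and 5.04 (2.35 ± 0.03). Spi1, the gene of IRF8's partner PU.1, rose by 0.49 ± 0.04, and Pou2f2, an octamer factor, by 0.84 ± 0.13. Klf4, a factor of monocyte development and a reported IRF8 target, was at -1.37 and -1.25 in empty-vector cells and -1.20 and -1.25 in IRF8 cells, a change of 0.08 ± 0.09 that did not pass the test (adjusted p = 0.491, limma). Over 29 tested genes reported in the literature as IRF8 targets, 15 rose and 5 fell, against 22.7% and 25.4% of all genes. Their median change was 0.29, and those that fell included Pml (-0.74 ± 0.03).

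Of 10 factors of the granulocyte path 6 fell, against 25.4% of all genes, and 1 rose, with a median change of -0.19. Gfi1, a repressor that neutrophil formation requires, went from 3.81 and 3.79 to 2.47 and 2.56 (-1.28 ± 0.04), and Myb, a progenitor factor, fell by 0.37. In the C/EBP family, Cebpb fell by 0.53 and Cebpg by 0.44, while Cebpd (0.33 ± 0.04) and Ddit3 (0.39 ± 0.06) rose. The probe for Cebpa was not well above background on any array of this cell line, those of cells given C/EBPalpha included. Its signals were 3.52 and 3.39 in empty-vector cells and 3.49 and 3.18 in cells given C/EBPalpha without IRF8. The probe thus does not show the introduced transcript, and no level of Cebpa is read from it.

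Primary granule proteins, which neutrophil precursors make at the promyelocyte stage, fell in 11 of 14 tested members against 25.4% of all genes, with a median change of -0.67, or -0.34 with undetected genes at their bound. Mpo, the myeloperoxidase gene, went from 7.34 and 7.39 to 5.85 and 5.86, a 2.85-fold fall (-1.51 ± 0.03, adjusted p = 6.53e-12, limma). Ctsg fell by 1.59 and Prtn3, the gene of proteinase 3, by 1.50, whereas Elane, the neutrophil elastase gene, fell by 0.16. Cfp, the complement factor properdin, rose by 1.95 ± 0.03 in the same list. Mpo, Prtn3 and Ctsg remained detected in IRF8 cells.

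Genes of secondary granules and late neutrophils fell in 13 and rose in 7 of 24 tested members. Over all genes 25.4% fell and 22.7% rose. The median change of the list was -0.19. Wfdc21 went from 0.31 and 0.35 to -2.26 and -2.36 (-2.64 ± 0.04), the granule protein gene Ngp from 2.01 and 1.92 to -0.55 and -0.52 (-2.51 ± 0.03), and Camp, the cathelicidin gene, fell by 1.25. The members that rose included Ifitm6 (2.89 ± 0.03) and Anxa1 (1.52 ± 0.04), which monocytes also express. Alox5, the enzyme that begins leukotriene synthesis, fell by 2.34.

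Genes of other blood lineages supplied several of the largest falls. Angpt1, the TIE2 ligand made by stem cells and megakaryocytes, went from 0.31 and 0.47 to -3.82 and -3.89, an 18.9-fold fall (-4.24 ± 0.12) and the largest among genes detected on all 4 arrays. Gata1, the main factor of erythroid cells, megakaryocytes, eosinophils and mast cells, went from -0.60 and -0.48 to -3.86 and -3.67 (-3.23 ± 0.22). With the normexp background these changes were -2.64 and -1.67.

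Megakaryocyte and platelet genes fell in 9 and rose in 4 of 18 tested members, against 25.4% and 22.7% of all genes. The median change was -0.32. Mmrn1, the platelet protein multimerin, fell by 2.46, Gp9, a chain of the receptor for von Willebrand factor, from 0.61 and 0.68 to -1.16 and -1.06 (-1.76 ± 0.08), and Nfe2, a factor of platelet formation, by 1.12, while Vwf rose by 1.48 ± 0.04. Erythroid genes fell in 8 and rose in 3 of 17, against the same shares of all genes, or rose in 6 with the normexp background. The risers were all beta globin genes: Hbb-bt went from 3.54 and 3.58 to 6.83 and 6.87 (3.29 ± 0.04), Hbb-b2 rose by 3.30 ± 0.08 and Hbb-bs by 1.55 ± 0.24, with near-identical sequences that their probes may share. The alpha globin gene Hba-a1 fell by 2.02 in the same cells. The summed signal of the erythroid list was 108 and 109 in empty-vector cells and 207 and 210 in IRF8 cells, and that of the megakaryocyte list 144 and 142 against 107.4 and 107.3, all as multiples of the 75th percentile.

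Basophil, mast cell and eosinophil genes fell in 9 and rose in 6 of 23 tested members, against 25.4% and 22.7% of all genes, with 4 falling on probes detected in all 32Dcl.3 groups. The median change, 0.04, took either sign depending on the setting. Mcpt8, a basophil protease, went from 2.83 and 2.82 to 0.59 and 0.51 (-2.27 ± 0.04), Epx, eosinophil peroxidase, fell by 2.29 and Cpa3, mast cell carboxypeptidase, by 1.60, while Il1rl1, the interleukin-33 receptor, rose by 1.13 ± 0.13. Il6, listed here as a mast cell cytokine, went from -0.34 and -0.37 to -2.73 and -2.82 (-2.42 ± 0.13, or -1.52 with the normexp background). The list's summed signal was 60.9 and 60.8 against 57.1 and 56.9.

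Stem and early progenitor genes fell in 14 and rose in 3 of 23, against 25.4% and 22.7% of all genes, with a median change of -0.28; 1 rose without the first empty-vector array. Mycn, a MYC relative expressed in stem cells, went from 4.31 and 4.31 to 1.71 and 1.70, a 6.08-fold fall (-2.60 ± 0.09). Cd34 rose by 1.04 ± 0.09. B cell genes (3 of 11 fell, 1 rose) and T and NK cell genes (5 of 15 fell, 2 rose), where 25.4% of all genes fell and 22.7% rose, were at low summed signals of 4.76 and 4.64 against 3.76 and 3.70, and of 34.4 and 33.2 against 29.2 and 29.1. Gzmb, the granzyme B gene that mast cells and granulocytes can also express, fell by 2.78 ± 0.19. The part of other cell types in these changes was not tested.

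Genes of growth fell together by small amounts. Of 44 tested genes of DNA replication 37 fell, against 25.4% of all genes, and the other 7 did not pass the test; the median change was -0.22 and no member reached 2-fold. Tyms, thymidylate synthase, was at -0.22 and -0.13 in empty-vector cells and -0.59 and -0.54 in IRF8 cells (-0.39 ± 0.08). Of 45 nucleolar and ribosome assembly genes 34 fell and 1 rose, with a median change of -0.23; Gnl3, nucleostemin, fell by 0.55 (3.76 and 3.77 against 3.21 and 3.23). The member that rose, Wdr75 (0.24 ± 0.06), was not called without the second IRF8 array (adjusted p = 0.0532, limma).

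Mitosis genes were less settled. Of 43 tested 23 fell and 1 rose, against 25.4% and 22.7% of all genes, and 9 fell when arrays were centred on their medians. The median change was -0.12. Leaving out each of the 4 arrays in turn gave 10 to 14 falling genes. Foxm1, a factor of the mitotic programme, fell by 0.48, and Mki67 fell by 0.20. In the MYC family, Myc fell by 0.48 and Mxd1, an antagonist of MYC, rose by 0.72 ± 0.05.

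Inhibitors of the cell cycle rose in 12 of 17 tested members and fell in 4, against 22.7% and 25.4% of all genes. Their median change was 0.32. The antiproliferative genes Btg2 and Btg1 rose by 1.53 ± 0.07 and 1.50 ± 0.05, the cyclin G2 gene Ccng2 by 1.29 ± 0.16, and Cdkn1b, the gene of the inhibitor p27, went from 1.72 and 1.73 to 2.62 and 2.59 (0.88 ± 0.04). Apoptosis regulators rose in 20 and fell in 6 of 31 (3 with median centring), against 22.7% and 25.4% of all genes. They included both survival and death genes: Bcl2a1d, a survival gene with near-identical copies, rose by 2.05 ± 0.03, Bmf, a BH3-only activator of death, by 1.71 ± 0.07 and Casp6 by 1.45 ± 0.06.

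**Figure D4:**
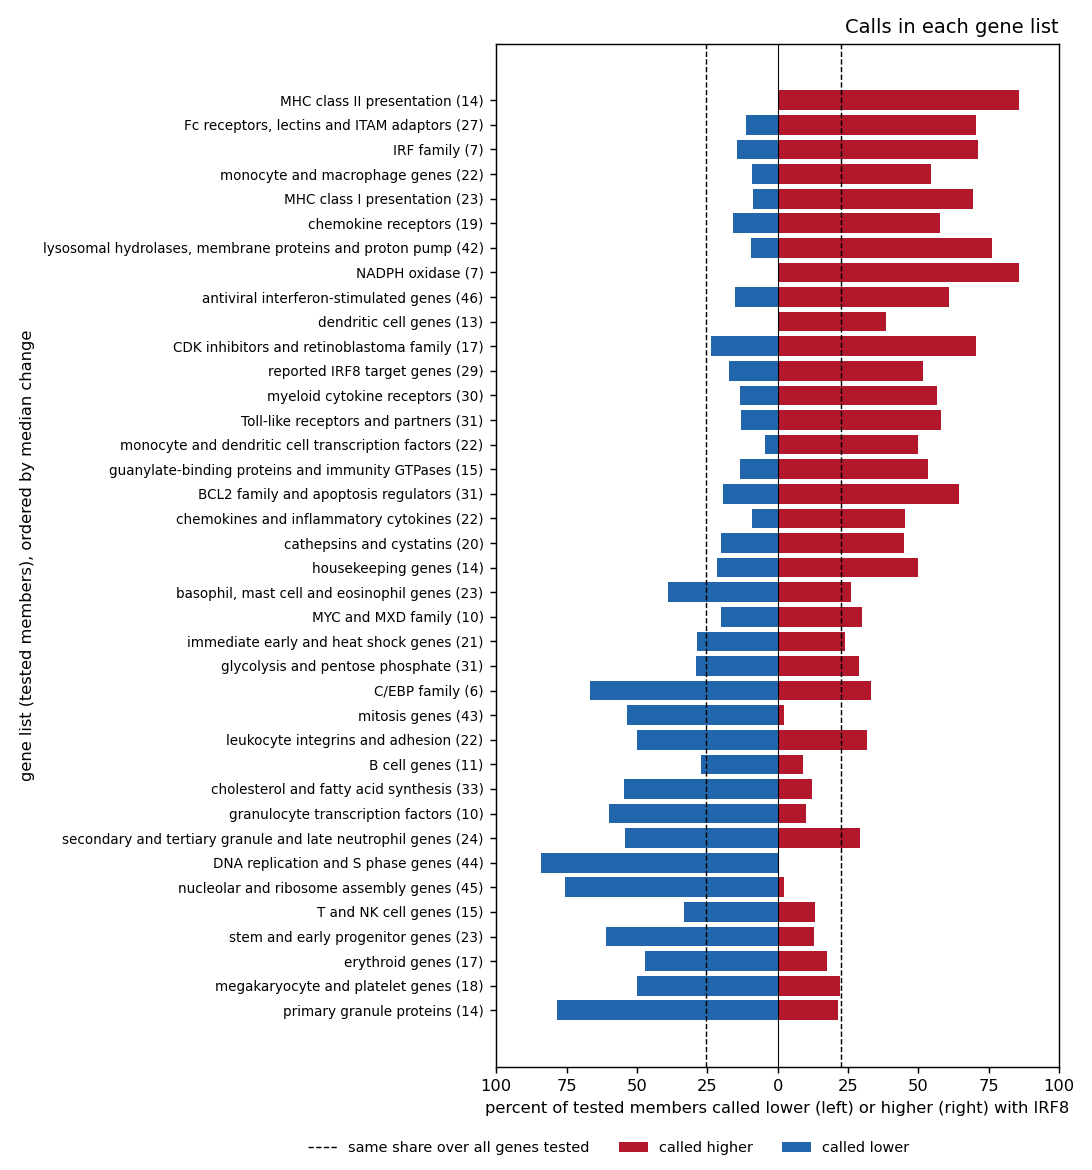
Share of the tested members of each of 38 gene lists that rose (red, right) or fell (blue, left) with IRF8, in percent, ordered by median change, with dashed lines at the shares of all genes tested (22.7% and 25.4%). Antigen presentation, Fc receptor and lysosomal lists stand at the top with mostly red bars, and stem cell, erythroid, megakaryocyte and primary granule lists at the bottom with mostly blue ones.

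Receptors for cytokines and chemokines mostly rose. Of 30 tested myeloid cytokine receptor genes 17 rose and 4 fell, against 22.7% and 25.4% of all genes. Their median change was 0.28. Csf2ra, the GM-CSF receptor alpha chain, went from 0.59 and 0.54 to 2.38 and 2.46 (1.85 ± 0.04), while Il2rg, the common gamma chain, fell by 1.11. Of 19 chemokine receptor genes 11 rose and 3 fell, with a median change of 0.50; on probes detected in all 32Dcl.3 groups 5 rose, and 1 fell without the first IRF8 array or without either empty-vector array. Ccr2, with which monocytes leave the marrow, was undetected in empty-vector cells and at least 14.9-fold higher with IRF8. Ccr6 was at least 11.6-fold higher; its fitted change, 4.73 ± 0.39, was 5.55 without the first and 3.91 without the second empty-vector array.

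Among chemokines and inflammatory cytokines 10 of 22 tested genes rose and 2 fell, against 22.7% and 25.4% of all genes. Their median change was 0.14. Besides Ccl17, Ccl6 rose by 2.90 ± 0.03, and Il1b, the interleukin-1 beta gene, was undetected in empty-vector cells and at least 13.8-fold higher with IRF8. Toll-like receptors and partners rose in 18 and fell in 4 of 31, against the same shares of all genes. Their median change was 0.28. Unc93b1, the chaperone of endosomal receptors, went from 2.97 and 2.92 to 4.73 and 4.75 (1.79 ± 0.04), Tlr6 rose by 1.98 ± 0.13 and the coreceptor gene Cd14 by 1.77 ± 0.08. Tlr4 fell by 0.35 and Irak3, an inhibitor of this signalling, by 0.90. Of 7 tested NADPH oxidase genes 6 rose, against 22.7% of all genes, led by Ncf1 (0.94 ± 0.05). Cybb, the catalytic subunit gene, was not above background (0.06 ± 0.38).

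Integrins and adhesion genes fell in 11 and rose in 7 of 22, against 25.4% and 22.7% of all genes, and 8 fell with arrays centred on their medians. Itgax, Icam1 (1.67 ± 0.07) and Itgb7 (1.36 ± 0.03) rose, while Itga6 fell by 0.54, Pecam1 by 0.51 and Itga4 by 0.50. Cholesterol and fatty acid synthesis genes fell in 18 and rose in 4 of 33, against the same shares of all genes. The falls were led by the desaturase genes Fads2 (-0.74 ± 0.08) and Scd2 (-0.60 ± 0.03), and the median change was -0.17. Of 31 glycolysis and pentose phosphate genes 9 rose and 9 fell, against 22.7% and 25.4% of all genes. Without the first IRF8 array or with median centring 5 rose and 5 fell, and 5 rose without the first empty-vector array. Of 14 housekeeping genes 7 rose and 3 fell (1 with arrays centred on their medians), against 22.7% and 25.4% of all genes. None of them changed by 2-fold, and the median change was 0.07. The extremes were B2m (0.53 ± 0.03), itself a class I gene, and Ywhaz (-0.26 ± 0.05). Immediate early and heat shock genes, which can mark handling of cells, rose in 5 and fell in 6 of 21, against 22.7% and 25.4% of all genes. In this list 2 or 3 fell when any of the 4 arrays was left out.

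The effect of IRF8 in the presence of C/EBPalpha was measured on 4 other arrays of the same slide, again with IRF8 in its own slide column, and those values are set beside the present ones. There 4592 genes rose (34.4%) and 5059 fell (37.9%), a split that went from 47.6% to 20.3% rising when arrays were centred on their medians. Of the 476 genes that rose at least 2-fold with IRF8 alone, 392 (82.4%) also rose with IRF8 added to C/EBPalpha and 26 fell. Of the 204 that fell at least 2-fold, 144 (70.6%) also fell and 6 rose. In the other direction, 324 (32.6%) of the 994 genes that rose at least 2-fold in the presence of C/EBPalpha (7.45% of all), and 131 (11.6%) of the 1130 that fell (8.47% of all), had changed at least 2-fold the same way with IRF8 alone. The shares of all genes that rose or fell at least 2-fold with IRF8 alone were 3.57% and 1.53%. Cd74 (8.71 ± 0.04), Ctss (6.49 ± 0.06) and Csf1r (3.41 ± 0.04) rose there as well, whereas Lyz2 rose with IRF8 alone and fell by 0.71 in the presence of C/EBPalpha.

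Loss of IRF8 was measured in progenitors sorted from bone marrow: MDPs, which can form monocytes and dendritic cells, and cMoPs, a later stage committed to monocytes. Irf8KO MDPs had 2733 genes higher (22.8%) and 3422 lower (28.6%) than wild type among 11963 tested, and Irf8KO cMoPs 2746 higher (23%) and 3726 lower (31.1%). Median centring changed the share higher among called genes to 28.6% in MDPs and 13.4% in cMoPs. Of 315 tested genes that rose at least 2-fold with IRF8 in 32Dcl.3 cells, 111 (35.2%) were lower and 108 (34.3%) higher in Irf8KO MDPs, and 140 (44.4%) were lower and 102 (32.4%) higher in Irf8KO cMoPs. Of 103 tested genes that fell, 62 (60.2%) were higher in Irf8KO MDPs and 70 (68%) in Irf8KO cMoPs, against 22.1% of the genes tested in both kinds of cell. Over the genes tested in both kinds of cell 29% were lower in Irf8KO MDPs and 31.2% in Irf8KO cMoPs.

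Among genes chosen because all 4 comparisons called them in matching directions, Rasa4, a Ras GTPase-activating protein, went from 0.01 and 0.13 to 3.72 and 3.80 in 32Dcl.3 cells (3.69 ± 0.05), rose by 3.74 with IRF8 added to C/EBPalpha, and was lower by 3.31 in Irf8KO MDPs (-3.31) and 5.15 in Irf8KO cMoPs (-5.15). Arl5c, an ARF-like GTPase, gave 3.21, 4.38, -4.13 and -4.57 in the same order, and Phf11a gave 3.23, 3.61, -2.27 and -2.47. Adora3, Rnase6, an antimicrobial ribonuclease, and Slc14a1, a urea transporter, were undetected in empty-vector cells and at least 90.9-fold, 31.2-fold and 13.5-fold higher with IRF8. Of the falling genes, Wfdc21 gave -2.64, -2.44, 2.63 and 5.66, Trem3 gave -2.94, -4.80, 1.85 and 1.74, and Dmkn, an epidermal secreted protein, gave -2.12, -2.41, 2.34 and 2.48. Klf4 was lower by 3.91 (-3.91) in Irf8KO MDPs and by 5.27 (-5.27) in Irf8KO cMoPs; it did not pass the test with IRF8 alone, where it changed by 0.08, and rose by 0.87 with IRF8 in the presence of C/EBPalpha. Bcl6 rose with IRF8 and was also higher in Irf8KO MDPs (1.41) and cMoPs (1.33).

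**Figure D5:**
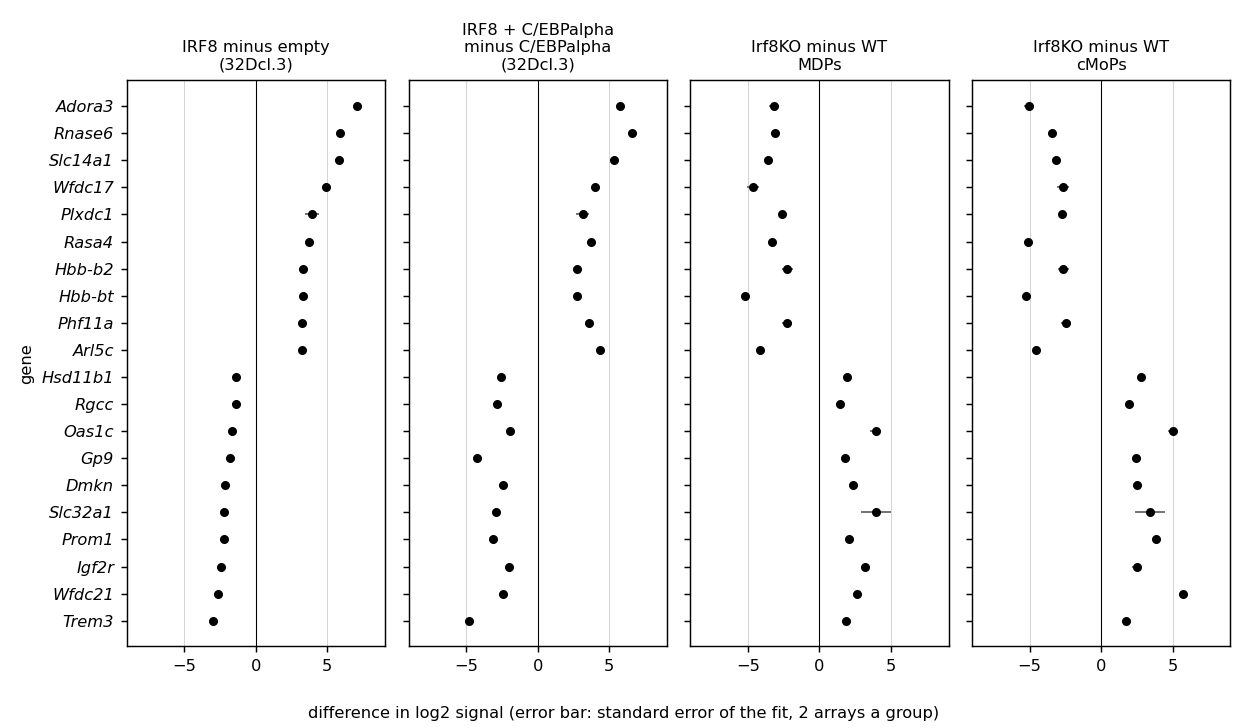
Difference in log2 signal (horizontal; error bars, standard error of the fit, 2 arrays a group) of 20 genes in IRF8 against empty vectors, IRF8 with C/EBPalpha against C/EBPalpha, and Irf8KO against wild type in MDPs and in cMoPs. The genes were chosen for being called in matching directions, so the upper 10 lie right of 0 with added IRF8 and left of it in knockouts and the lower 10 the reverse.

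Some large falls rest on 1 array. Nqo1, a quinone reductase, was at 0.43 and -3.38 in empty-vector cells and undetected with IRF8, at least 10.6-fold lower, with a fitted change of -4.83 ± 0.89 that was -2.93 without the first empty-vector array. Prdm12 (-3.63 and 0.15), Usp50 (-4.52 and -1.22), Aoc1 (-0.77 and -4.09) and Mmp28 (-0.68 and -4.81) were as unequal in the empty-vector arrays. The calls of Aoc1 and Mmp28 were lost without the first empty-vector array (changes of -1.28 and -0.83) and that of Prdm12 without the second (-1.54), and Usp50 changed by -5.66 without the first and by -2.36 without the second. Bicc1, an RNA-binding protein, was at -2.16 and -2.17 and undetected with IRF8, at least 6.55-fold lower, and its empty-vector arrays matched closely. The gene 1700042G15Rik (-2.32 ± 0.84) kept its call in 6 of 16 settings, the main one included. It changed by -0.40 without the first empty-vector array.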

How the data were processed

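Gene expression was measured on Agilent single-colour mouse arrays. Per the file headers, the deposited intensity values were made with Agilent Feature Extraction 10.7.3.1 (protocol GE1_107_Sep09, build mm9) by subtracting background and detrending each array, with no scaling between arrays; raw median intensities and 0/1 flags (other values) are deposited beside them. The deposited table of the whole series holds, for 32Dcl.3 cells, the same intensity after quantile normalization. Per the labels' protocols, the RNeasy Micro kit and Low Input Quick Amp labelling were used.

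Outlier spots were left out, spots of a probe averaged, and log2 taken minus log2 of the array's 75th percentile. Symbols came from RefSeq accessions (GRCm38.p6): of 55681 probes 26762 matched 1 symbol and 28919 none. A probe was kept if well above background (over 0.5 of its spots) on both arrays of any of the 4 groups; the brightest probe stood for its gene. The 8 arrays of 32Dcl.3 cells were fitted with limma 3.58.1 (R 4.3.3, data.table version 1.17.8) on 4 group means with eBayes and an intensity trend, 4 residual and 7.26 prior degrees of freedom; p-values were two-sided. The 8 progenitor arrays were fitted likewise. The steps were tested on simulated data. Figures were drawn with matplotlib 3.10.9 (Python 3.11.15).

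The members and the 38 gene lists were chosen with earlier results of these data known. Genes were named by rule: the 15 largest rises and falls on all 4 arrays, the 6 largest bounds each way, the 3 largest changes each way per list, the 10 most consistent each way over the 4 comparisons, the 5 largest each way among genes also called in the IRF8 by C/EBPalpha interaction, and undetected markers. Others, such as Ciita, Klf4, Spi1, Elane, Fcgr3, Stat2 and further list members, were chosen after their values were seen. Some genes are not reported here. Same-numbered arrays did not deviate together, so numbers were not used as pairs. The number of arrays limits the precision.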

Additional observations from a re-analysis of the deposited data

Results flagged for a closer look

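The effect of IRF8 differed between cells without and with C/EBPalpha in 182 of the 225 named genes, by the limma interaction term. That term shares its arrays with the effects it compares, and no outlier test was run on groups of 2 arrays. Only 11 of these genes are described here. All of them but Il6 were among the genes named for the size of their interaction, so their p-values follow that choice. The interaction is the IRF8 effect with C/EBPalpha minus that without it, and 55.7% of all genes tested were called in it, so a call by itself sets no gene apart. The direction of these calls depended on the scaling: 3175 were positive and 4254 negative in the main fit (42.7% positive). With arrays centred on their medians 788 were positive and 7708 negative (9.27% positive). The counts of opposite directions that follow are from the main fit. Of all 13337 genes 803 were called in the interaction and in opposite directions without and with C/EBPalpha, 13 of them with both changes at least 2-fold. Among the 225 named genes, some of which were chosen by their interaction, 28 and 7 were.

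Il6 fell by 2.42 with IRF8 alone and rose by 2.05 with C/EBPalpha, an interaction of 4.47 (adjusted p = 2.56e-09, limma). Tnfsf13b, the B cell survival factor BAFF, went the other way, with changes of 2.02 and -2.27 and an interaction of -4.29 (adjusted p = 6.88e-10, limma). Acss1, a mitochondrial acetyl-CoA synthetase, changed by 1.57 and -2.48 (interaction -4.05). The mannose receptor gene Mrc1 was at least 1.72-fold higher with IRF8 alone; its fitted interaction of -4.15 rests on groups in which it was not above background. Klra2 had an interaction of -3.50, but its probe was not above background with IRF8 alone or with empty vectors. Its call there held in 13 of 16 settings, the main one included, so no effect of IRF8 alone is read. Pdpn, podoplanin, was at least 10.3-fold higher with IRF8 alone and not above background in the other 3 groups of 32Dcl.3 cells, on which its interaction of -4.50 rests.

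The other 5 genes fell with IRF8 alone from empty-vector levels near background or unequal between arrays. With IRF8 alone Ifnk was at least 3.37-fold lower, Prdm12 at least 7.87-fold, Foxl1 at least 2.39-fold, Nqo1 at least 10.6-fold and Usp50 at least 4.01-fold. Their fitted interactions were 5.63 for Ifnk, 5.32 for Prdm12, 4.78 for Foxl1, 4.90 for Nqo1 and 4.57 for Usp50, with adjusted p-values from limma between 2.73e-05 and 0.00625. In the presence of C/EBPalpha IRF8 changed Ifnk by 1.84 ± 0.49, Prdm12 by 1.89 ± 0.89 and Foxl1 by 1.41 ± 0.54. Nqo1 changed there by 0.07 ± 0.89 and Usp50 by 0.56 ± 0.84.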

How the results depend on the processing

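Of 225 named genes 192 kept their direction and their side of the threshold under every alternative in which they were tested, and 33 lost the call or reversed under at least 1. With array medians in place of the 75th percentile 2032 genes fell. With the normexp background 259 genes rose and 74 fell at least 2-fold, and on probes above background on all 8 arrays 302 and 104 did. Leaving out each array in turn gave 2584 to 2701 genes rising, 2553 to 2880 falling, 480 to 525 rising at least 2-fold and 185 to 339 falling at least 2-fold, the last without the first empty-vector array. Cxcr5 changed by 0.017 with normexp (adjusted p = 0.852, limma), and on the mean over probes Cd4 changed by -0.030 and Ly6c1 by 0.65; the cause was not tested. The normexp background moved 69 named genes by over 1.5 times, and raising dim values to the faintest detected signal moved 26.

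Same-numbered arrays of 2 groups had deviations correlating between -0.06 and 0.05, which gives no sign of pairing. With a replicate block 2992 genes rose, 3324 fell, 476 rose and 205 fell at least 2-fold, the interaction called 7381, IRF8 with C/EBPalpha against C/EBPalpha 9616, and Irf8KO 6098 in MDPs and 6415 in cMoPs; 3 named genes lost their calls, Clec11a and Cxcr5 among them. The fit on the 4 arrays compared gives no interaction. List medians changed sign under some alternative for the basophil, B cell, immediate early and MYC lists. With 2 arrays a group, 1 slide and IRF8 in its own slide column, the spread between cultures is known from few samples.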
